A study of Mus musculus with 18 samples.

Results

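Hair keratins and keratin-associated proteins build the hair shaft, and their RNA was followed here across 6 groups of mouse epidermal cells with or without Zfp36. The genes were chosen by name and by a minimum of counts. A gene entered when its symbol began with Krtap, or when it was one of 16 named hair keratins, and when its counts summed to at least 10 over all 18 columns. Of 52636 genes in the table, 72 had such a name, and 24 of these reached the minimum. They were 8 type I keratins (Krt31, Krt32, Krt33a, Krt33b, Krt34, Krt35, Krt36 and Krt39), 6 type II keratins (Krt81, Krt82, Krt83, Krt84, Krt86 and Krt87) and 10 keratin-associated proteins (Krtap3-3, Krtap4-8, Krtap4-16, Krtap7-1, Krtap8-1, Krtap10-10, Krtap11-1, Krtap13-1, Krtap14 and Krtap17-1). The other 48 were 47 Krtap genes and Krt40, and 19 of the Krtap genes had no count in any column. The lowest genes inside the minimum were Krtap10-10 and Krtap17-1, with 15 counts each, and the highest outside it were Krtap1-5 and Krtap4-1, with 8 counts each. Krt85 was not analysed here.

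Hair shaft cells arise from the matrix at the base of a growing follicle, where type I and type II hair keratins pair and assemble into intermediate filaments. Krt35 is among the first of them to appear, in the matrix and lower cortex, and Krt31, Krt33a, Krt33b, Krt81, Krt83 and Krt86 follow in the cortex, while Krt32 and Krt82 belong to the cuticle. Keratin-associated proteins are made later and crosslink the filaments. Families 7 and 8 of these proteins are rich in glycine and tyrosine, family 11 is a high-sulfur family, and families 4 and 17 are very rich in cysteine. Resting follicles make no shaft.

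All mice carried floxed Zfp36 alleles on a C57BL/6 background. Zfp36 encodes tristetraprolin, an RNA-binding protein that speeds mRNA decay. The fl/fl mice were littermate controls without Cre. In the ΔK14 mice, named ΔEP in the study, Cre was driven by a human keratin 14 promoter, which is active in basal keratinocytes and in the outer layer of hair follicles. Per the study methods the mice were 8 weeks old when their backs were shaved. Mock mice were mock-treated. The treated groups came from nontumoral skin beside tumors after DMBA, a mutagen, and TPA, a phorbol ester that promotes tumors, although their cell-type label reads treated tumoral keratinocytes. The tumor groups came from papillomas of the same protocol. Whole skin is the labelled source, but by the study's methods the RNA came from epidermal cells, gated on EpCAM and against CD45, CD140a and CD31. The hair cycle stage of the skin is not given in the sources used here.

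Each group held 3 columns, S1 to S3. The columns of mock ΔK14 S2 and S3 were identical in all 52636 genes and were counted once, which left 17 libraries with 2808550 to 9617985 counts each. Zfp36 itself averaged 496 ± 302 CPM (counts scaled to library size; SD, n = 3) in mock fl/fl and 27.8 ± 14.9 (n = 2) in mock ΔK14. In treated skin it averaged 376 ± 125 in fl/fl and 23.9 ± 7.66 in ΔK14 (n = 3 each). In tumors it averaged 215 ± 34.6 in fl/fl and 13.8 ± 4.33 in ΔK14 (n = 3 each), and it was called lower in ΔK14 tumors (log2 fold change -4.10, SE 0.30, adjusted p = 0.00882, edgeR quasi-likelihood test). Mock S1 of both genotypes stood apart from the other mock libraries before any test, in shaft genes and in several epidermal genes. Krt10, a keratin of the differentiating epidermis, stood at 420 and 385 CPM in mock S1 of fl/fl and ΔK14, and at 3390 to 4400 CPM in the other 3 mock libraries. No label marks these libraries as different, so a batch and the state of the skin cannot be told apart.

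The genes lie in clusters. On chromosome 11, the 8 type I keratins and 4 Krtap genes spanned 591513 bases of GRCm38 (chr11:99514114-100105626). Chromosome 15 held the 6 type II keratins within 119630 bases, chromosome 16 held 5 Krtap genes within 842322 bases, and Krtap10-10 lay on chromosome 10. All 24 are protein-coding in GENCODE. RefSeq promoters of GRCm38.p6, from 250 bases before to 50 bases after the start, were found for 16 of the 24. TATAAA, on either strand, stood in 11 of these 16 (68.8%) and in 13.6% of 32851 promoters of all genes. CTTTGA, the core of the motif bound by LEF1 and its relatives, stood in 8 of 16 (50%) and in 16% of all. Several of the genes are close copies of each other, so these are not independent cases. A match describes letters only and says nothing of binding.

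Promoters are shown for 3 genes that were lower in tumors, Krt31, Krtap8-1 and Krtap11-1, and for Krt32, whose levels followed another pattern. Each is read 5′ to 3′ on the minus strand, with TATAAA and CTTTGA on either strand in capitals. The positions are chr11:100050502-100050801 for Krt31, chr16:89487903-89488202 for Krtap8-1, chr16:89571134-89571433 for Krtap11-1 and chr11:100088220-100088519 for Krt32.
Krt31: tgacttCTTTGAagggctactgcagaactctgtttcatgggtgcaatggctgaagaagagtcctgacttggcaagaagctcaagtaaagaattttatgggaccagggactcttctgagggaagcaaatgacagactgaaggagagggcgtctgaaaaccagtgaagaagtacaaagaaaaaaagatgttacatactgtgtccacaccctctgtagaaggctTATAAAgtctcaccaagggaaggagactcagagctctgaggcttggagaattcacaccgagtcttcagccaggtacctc
Krtap8-1: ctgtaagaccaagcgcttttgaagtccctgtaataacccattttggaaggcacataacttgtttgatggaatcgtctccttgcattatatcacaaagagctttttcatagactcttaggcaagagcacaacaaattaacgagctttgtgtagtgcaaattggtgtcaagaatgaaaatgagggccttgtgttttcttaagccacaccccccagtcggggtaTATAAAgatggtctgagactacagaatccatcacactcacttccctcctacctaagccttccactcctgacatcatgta
Krtap11-1: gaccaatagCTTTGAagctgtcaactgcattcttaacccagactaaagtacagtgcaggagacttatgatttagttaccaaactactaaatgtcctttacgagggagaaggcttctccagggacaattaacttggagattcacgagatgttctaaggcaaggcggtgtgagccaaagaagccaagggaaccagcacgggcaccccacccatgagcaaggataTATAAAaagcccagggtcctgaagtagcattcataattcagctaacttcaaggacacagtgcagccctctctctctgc
Krt32: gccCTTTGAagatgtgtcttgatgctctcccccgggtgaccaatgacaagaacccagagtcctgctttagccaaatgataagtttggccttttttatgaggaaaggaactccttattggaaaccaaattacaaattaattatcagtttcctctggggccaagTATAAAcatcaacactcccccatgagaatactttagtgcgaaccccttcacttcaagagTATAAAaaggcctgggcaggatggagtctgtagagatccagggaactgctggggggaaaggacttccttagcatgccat
Counted from the start, with bases upstream negative, TATAAA began at -29 in Krt31 and Krtap8-1, at -28 in Krtap11-1 and at -29 in Krt32. CTTTGA began at -244 in Krt31, at -241 in Krtap11-1 and at -247 in Krt32, and these letters were not in the window of Krtap8-1. Krt32 held a further TATAAA. The RefSeq start of Krt32 did not match a GENCODE transcript.

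The summed level of the 24 genes was high in mock S1 of both genotypes, in all 6 treated libraries and in 1 tumor library. In mock fl/fl it was 296, 8.82 and 10.6 CPM in S1, S2 and S3, and in mock ΔK14 it was 253 and 13.6 CPM. Treated fl/fl libraries held 126, 130 and 241 CPM, and treated ΔK14 libraries 205, 95.5 and 57.7 CPM. Tumors of fl/fl mice held 14.5, 61.6 and 3.26 CPM, and those of ΔK14 mice 6.24, 6.86 and 8.48 CPM. The treated libraries, down to the lowest at 57.7 CPM, thus lay above every ΔK14 tumor, whereas tumor fl/fl S2 at 61.6 CPM lay inside the range of treated skin. In these bulk libraries fewer shaft cells and less shaft RNA per cell cannot be told apart.

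**Figure D1:**
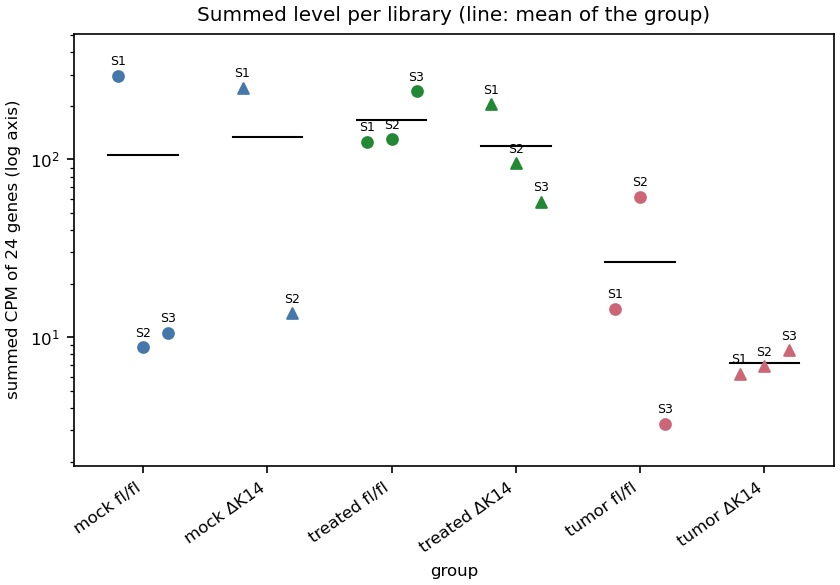
Summed CPM of the 24 genes (y axis, log scale) in each of 17 libraries by group (x axis); circles are fl/fl, triangles ΔK14, and lines the mean of a group. Mock S1 of both genotypes (296 and 253 CPM) and tumor fl/fl S2 (61.6 CPM) stand above the other libraries of their groups.

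Even at their highest the genes took a small part of the RNA. They made up 0.0353% of all counts in mock fl/fl S1 (95% exact interval 0.034 to 0.0367; counting error only) and 0.000517% in tumor ΔK14 S1 (0.000344 to 0.000748). Krt35 gave 36.6% to 50.9% of the members' counts in the 6 treated libraries, and 45.4% and 46.8% in mock S1 of fl/fl and ΔK14. It gave 57.3% (52.3 to 62.2) in tumor fl/fl S2 but 3.82% ± 3.95 (SD, n = 3) in ΔK14 tumors. The few counts left in ΔK14 tumors were thus mostly from other genes of the set.

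**Figure D2:**
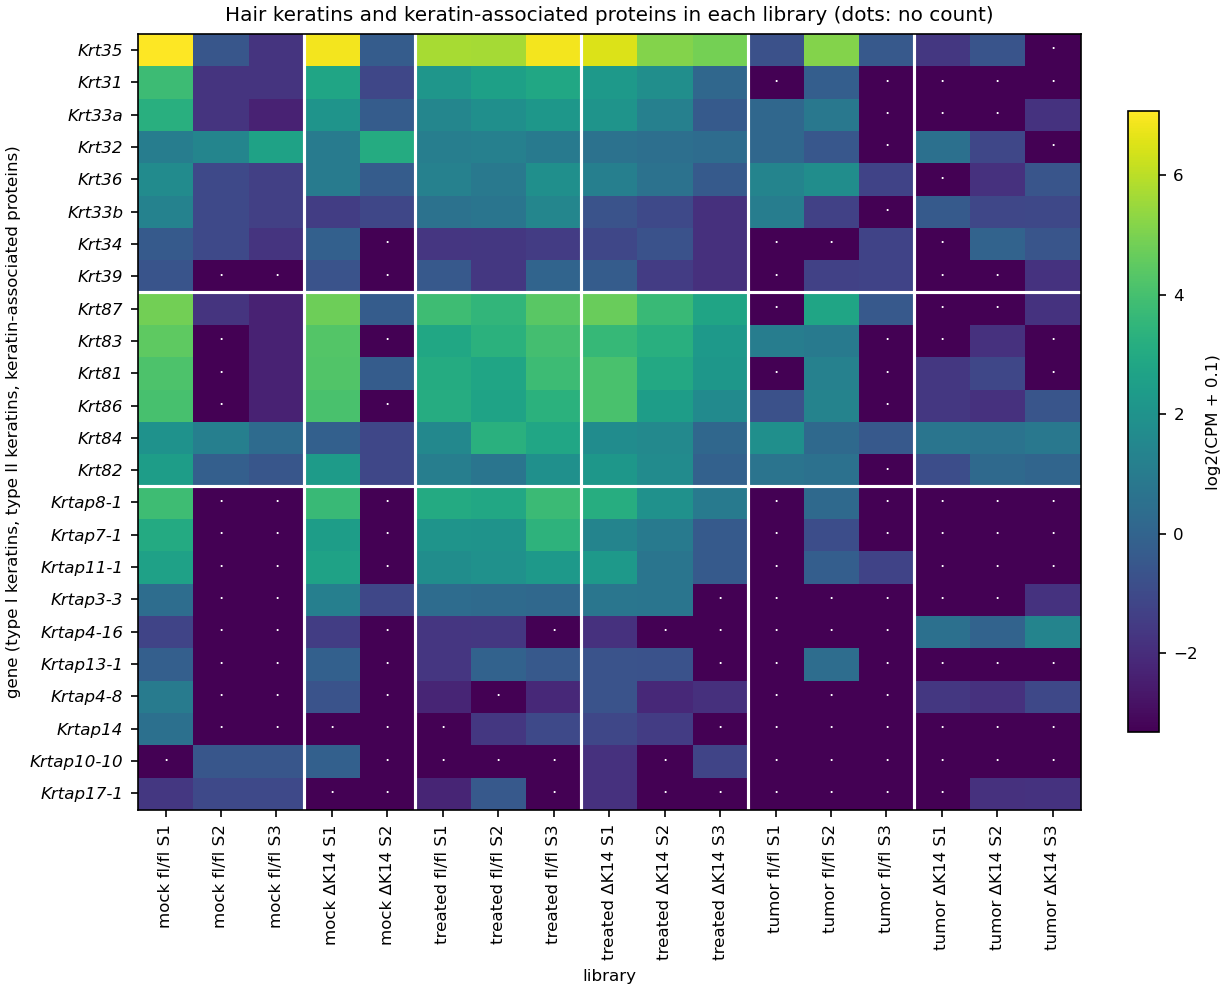
log2(CPM + 0.1) of the 24 genes (rows, in blocks of type I keratins, type II keratins and keratin-associated proteins) in 17 libraries (columns); white dots mark genes without a count. Krt35 runs from 0 CPM in tumor ΔK14 S3 to 135 CPM in mock fl/fl S1, and Krt32 does not follow the other type I keratins.

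Among the type I keratins, Krt35 (chr11:100092193-100096241) carried most of the signal. It had 135, 0.588 and 0.193 CPM in mock fl/fl and 118 and 0.718 CPM in mock ΔK14. Treated libraries held 52.0, 51.1 and 119 CPM in fl/fl and 91.0, 34.9 and 29.3 CPM in ΔK14, and tumors 0.498, 35.3 and 0.652 CPM in fl/fl and 0.223, 0.542 and 0 CPM in ΔK14. Mock libraries thus split between levels among the highest and nearly the lowest of the whole series, with no mock library between. Per kilobase of exon, Krt35 was also the highest of the 24 in treated fl/fl, at 30.9 ± 16.2 CPM per kb (SD, n = 3). Krtap8-1 followed at 16.7 ± 5.63, Krtap7-1 at 9.81 ± 5.89 and Krt87 at 6.87 ± 2.19, and the ranges of mean ± SD of neighbours in this order overlapped.

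Cortical type I keratins were high in the same libraries at lower levels. Krt31 had 13.7, 0.196 and 0.193 CPM in mock fl/fl, 6.75 and 0.359 in mock ΔK14, 4.34 to 7.31 in treated fl/fl and 1.01 to 4.84 in treated ΔK14. In tumors Krt31 had a count in fl/fl S2 alone, at 0.760 CPM. Krt33a had 9.41 CPM in mock fl/fl S1, 2.601 to 4.44 in treated fl/fl and 0.675 to 4.12 in treated ΔK14, and in tumors it reached 1.67 CPM in fl/fl S2 and at most 0.188 in ΔK14. Krt36 behaved in part differently, with 2.49, 3.35 and 0.326 CPM in fl/fl tumors beside 1.75 to 3.52 in treated fl/fl. Krt33b, Krt34 and Krt39 had only 89, 34 and 32 counts over all columns. Krt31, Krt33a, Krt33b and Krt34 share 17.8% to 33.1% of their 50-base windows with other genes, mostly with each other, so reads may have been split or lost among them.

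The type II keratins of the cortex were high in the same libraries as Krt35. Krt87 (chr15:101431038-101438804) had 29.3, 0.196 and 0.0966 CPM in mock fl/fl, 27.3 and 0.718 in mock ΔK14, and 11.4 to 21.1 in treated fl/fl. It had 26.2, 13.2 and 6.58 CPM in treated ΔK14, 0, 6.84 and 0.652 in fl/fl tumors, and 0, 0 and 0.188 in ΔK14 tumors. Krt81, Krt83 and Krt86 were likewise low in ΔK14 tumors, with 6.36 to 15.4 CPM in treated fl/fl, 3.04 to 17.0 in treated ΔK14 and at most 0.565 in ΔK14 tumors. These 4 genes share 22.1% to 43.3% of their windows, and their values are not independent of each other. Krt82, a cuticle keratin, kept 0.446 to 1.08 CPM in ΔK14 tumors beside 0.843 to 4.48 CPM in treated ΔK14. Krt84, known mainly from the tongue, was counted in all 17 libraries, with 1.44 to 1.70 CPM in ΔK14 tumors and 2.82 to 9.64 in treated fl/fl.

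Keratin-associated proteins were found mainly in the libraries with high Krt35. Krtap8-1 (chr16:89487379-89487952) had 14.3, 0 and 0 CPM in mock fl/fl and 12.9 and 0 in mock ΔK14. It had 8.02, 7.45 and 13.3 CPM in treated fl/fl and 8.78, 3.78 and 1.86 in treated ΔK14. In tumors its counts were 0, 7 and 0 in fl/fl and 0 in all ΔK14 libraries. Krtap7-1 and Krtap11-1 were likewise at 0 in the mock libraries other than S1 and in all ΔK14 tumors, and reached 10.3 and 4.83 CPM in treated fl/fl S3. None of these 3 genes shared a 50-base window with another gene. The other 7 had 15 to 67 counts over all columns. Krtap3-3 had 5 to 11 counts in each treated fl/fl library and none in fl/fl tumors, and Krtap13-1 had 8 counts in tumor fl/fl S2, its highest count anywhere.

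Tumors were compared with treated skin of the same genotype, to ask how shaft genes differ between papilloma and the skin beside it. In fl/fl mice, 13 of the 24 genes passed the low-count filter and 7 of them were called lower in tumors, where called genes changed more than 2-fold at an adjusted p below 0.05. Over all genes tested in this comparison, 10.5% were called lower. A gene that passes the filter through treated libraries alone is bound to differ, so the count of calls describes the set and does not stand as support. The called genes were the keratins Krt31, Krt81, Krt83 and Krt86 and the keratin-associated proteins Krtap7-1, Krtap8-1 and Krtap11-1. Tumors lay below treated skin without overlap for 13 of all 24 genes, Krt35 and Krt87 among them, and for 20.1% of the 27036 genes of the table with at least 10 counts.

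The fl/fl changes were largest for Krtap7-1 and Krtap8-1 among the 13 genes tested. Krtap7-1 fell by 4.57 on the log2 scale (SE 0.86, adjusted p = 0.0101, edgeR quasi-likelihood test), from 134 counts in 3 treated libraries to 3 counts, all in tumor S2. Krtap8-1 fell by 4.12 (SE 0.74, adjusted p = 0.00852, edgeR) and Krt31 by 3.84 (SE 0.73, adjusted p = 0.0103). The type II keratins Krt81, Krt83 and Krt86 had log2 fold changes of -3.16, -3.06 and -2.73. Krt35 was not called, at a log2 fold change of -2.48 (SE 1.07, adjusted p = 0.124, edgeR), and neither was Krt87 at -2.35 (SE 0.80, adjusted p = 0.066, edgeR). Both had most of their tumor counts in S2. The median over the 13 genes was -2.73 and that over all genes tested was -0.03.

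In ΔK14 mice, 6 of the 24 genes passed the filter and all 6 were called lower in tumors, beside 15.5% of all genes tested. They were Krt35, Krt81, Krt83, Krt86, Krt87 and Krtap8-1. Each had at most 3 counts in every tumor library, so all 6 passed the filter through treated libraries alone and were bound to differ. The count of calls describes the set and does not stand as support. Krt35 went from 508, 268 and 174 counts in treated skin to 1, 3 and 0 in tumors, a log2 fold change of -7.60 (SE 0.75, adjusted p = 0.000414, edgeR quasi-likelihood test). Its pooled level was 190-fold higher in treated skin, with a 95% counting interval of 73.9 to 698. Krt87 differed by -7.54 (SE 0.91, adjusted p = 0.000886, edgeR) and Krt83 by -6.76 (SE 0.79, adjusted p = 0.000762), each with 1 count left over the 3 tumor libraries. Krtap8-1 had no count in tumors, which with a floor of 3 counts a library makes it at least 8.12-fold lower. Krt31, Krtap7-1 and Krtap11-1 also had no count there and did not pass the filter, and they were at least 5.20-fold, 2.82-fold and 3.98-fold lower.

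**Figure D3:**
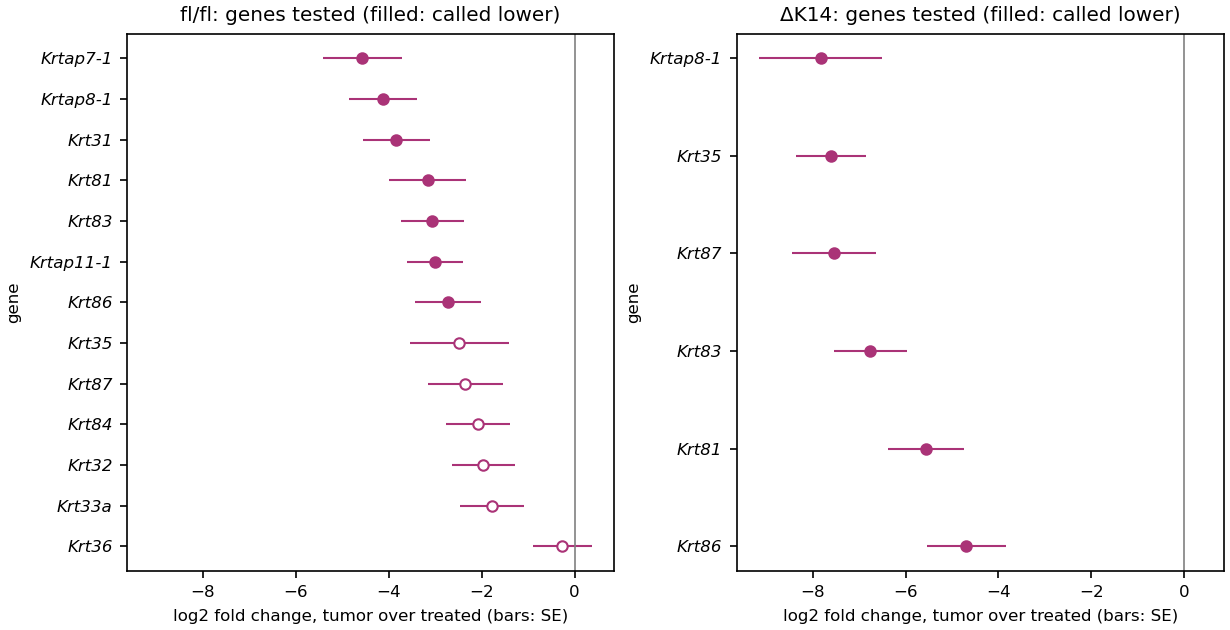
log2 fold change of tumor over treated skin (x axis) for the genes tested in fl/fl (left) and ΔK14 mice (right); bars are standard errors and filled points were called lower. All 13 points on the left and all 6 on the right lie below 0, among them -0.26 for Krt36 in fl/fl and -7.60 for Krt35 in ΔK14; Krtap8-1 had no count in ΔK14 tumors, so its point there depends on the prior count.

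The difference between genotypes in this change was tested by an interaction term. None of 14 genes was called, beside 0.0118% of all genes tested, and 3 of them, Krt35, Krt83 and Krt87, had an unadjusted p under 0.05 (DESeq2 also called 0, with 4 under 0.05). Krt87 had an interaction of -5.18 (SE 1.64, adjusted p = 0.248, edgeR) and Krt35 of -5.13 (SE 1.80, adjusted p = 0.275). Without tumor fl/fl S1 both were called, with adjusted p of 0.0496 for Krt35 and 0.0351 for Krt87 (edgeR), but calls over all genes then rose to 7.53%. Without tumor fl/fl S2 their interactions were -0.61 and -2.20. The calls of single genes in fl/fl mice also rested on few libraries. Without treated fl/fl S1 or S3 the 7 calls became 3, without treated S2 or tumor S3 they became 4, and without tumor S1 they became 11. Without tumor S2 they became 9, and Krt35 and Krt87 were then among them. Tumor S2 was already seen to be high in these genes, so this fit shows only what rests on it. In ΔK14 mice the 6 calls became 13 without treated S3 and 10 without any 1 of the tumor libraries. The genes tested then rose from 6 to 15 without treated S3, and to 15, 13 and 13 without tumor S1, S2 and S3. The added calls were thus of genes that newly passed the filter. Over these fits without 1 library, 7.21% to 24.3% of all genes were called in either direction in fl/fl mice. In ΔK14 mice the share was 17.5% to 29.2%. With no low-count filter, 12 of 23 genes were called lower in fl/fl tumors, beside 7.13% of all, and 13 of 24 in ΔK14 tumors, beside 9.8% of all.

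Tumor fl/fl S2 held more shaft keratin RNA, as a sum, than the other tumors. Its levels were set against the mean of treated fl/fl, for genes with at least 30 counts there. Krt35 stood at 47.7%, Krt33a at 47.6%, Krt87 at 43.7% and Krt36 at 133% of that mean. Krt31 stood at 13.0%, Krtap8-1 at 11.1% and Krtap7-1 at 7.49%, so these genes were lower relative to Krt35 than in treated skin. Krtap8-1 had 3.02 counts for every 100 of Krt35 in this library (95% interval 1.20 to 6.32), and 11.2 to 15.4 in treated fl/fl libraries. The median over 15 shaft genes was 23.6%.

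Other hair genes were spread widely in tumor fl/fl S2. The inner root sheath moulds the growing shaft, and the median of 10 genes of this sheath and the companion layer was 5.97%, with a range of 3.51% for Krt71 to 23.0% for Krt72. The median of 14 regulators and other shaft proteins was 10.2%, from 1.32% for Shh to 766% for Prdm1. Hoxc13, which activates hair keratin genes, stood at 6.22%, Lef1 at 7.53%, Dlx3 at 3.85% and Msx2 at 3.50%, while Foxq1 stood at 74.0% and Gata3 at 64.3%. Dsg4, a desmosomal cadherin of the shaft, stood at 74.2% and S100a3, a calcium-binding protein of the cuticle, at 134%. These percentages are a description of 1 library and were not tested. The other fl/fl tumors held no Dsg4 count, and Dsg4 stood at 4.98% or less in ΔK14 tumors. S100a3 stood at 23.2% and 70.8% in tumor fl/fl S1 and S3, and at 72.8% or less in ΔK14 tumors. Foxq1 was higher in every other tumor, at 90.5% or more, and Prdm1 lay above the treated fl/fl mean in all of them. Gata3 stood at 79.6% and 75.4% in tumor fl/fl S1 and S3, and at 61.3% or less in ΔK14 tumors. High levels of Foxq1, Prdm1 and Gata3 were thus not particular to S2. The median over the 15 shaft genes was 6.08% in tumor fl/fl S1 and 0% in S3.

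**Figure D4:**
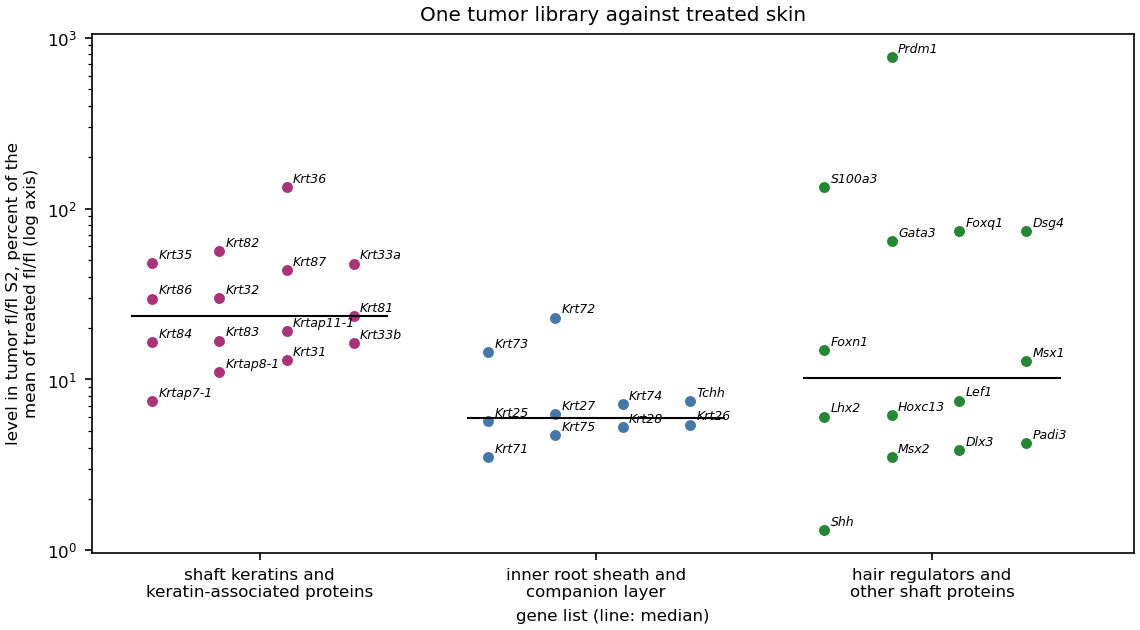
Level in tumor fl/fl S2 as a percent of the mean of treated fl/fl (y axis, log scale) for 15 shaft genes, 10 genes of the inner root sheath and companion layer, and 14 hair regulators and other shaft proteins (x axis); lines are medians. The shaft genes (median 23.6%) lie mostly above the sheath genes (median 5.97%), and Dsg4 and S100a3 lie near or above them.

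Tumors were also compared with mock skin. In fl/fl mice 3 of the 24 genes passed the filter and none was called lower, beside 1.88% of all genes tested. Krt32 alone had an unadjusted p under 0.05, and DESeq2 called it. Its log2 fold change was -2.82 (SE 0.89, adjusted p = 0.1, edgeR quasi-likelihood test). Without mock fl/fl S1 it was called, in a fit that called 1800 of 15636 genes lower. In ΔK14 mice Krt32 was also the only gene that passed, at -3.22 (SE 1.06, adjusted p = 0.0832, edgeR), beside 7.22% called lower over all genes, and DESeq2 called none. The fit without mock ΔK14 S1 leaves S2 as the lone mock library, and no call is taken from it. Krt32 stood at 8.25 CPM in S2 and at 1.89 in S1. The remaining genes did not pass the filter. With no low-count filter 12 of 23 genes were called lower in ΔK14 tumors, beside 6.57% of all. Apart from Krt32, the mock counts of these genes lay mainly in S1, with 438 and 2 counts of Krt35 in S1 and S2. Without mock ΔK14 S2, which leaves S1 as the lone mock library, the median log2 fold change of 13 genes was -7.69. S1 was known to be high in these genes and carried them past the filter in that fit, where the spread of the mock arm was taken from the tumors. Neither result is thus evidence of a change.

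Treated skin was compared with mock skin to ask what the DMBA/TPA protocol changed outside tumors. None of 15 genes tested in fl/fl and none of 12 tested in ΔK14 mice was called (edgeR), and no gene of the whole table was called in either comparison (0% of all in each). No member had an unadjusted p under 0.05 in these edgeR fits. DESeq2 called none of them either, with 1 under 0.05 in fl/fl and 0 in ΔK14. The median log2 fold changes of the genes tested were 0.67 in fl/fl and -0.14 in ΔK14. The mock libraries were far apart in each genotype. Without mock fl/fl S1, 14 of 15 genes were called higher in treated fl/fl skin, with a median log2 fold change of 6.71, beside 7.97% called higher over all genes. The library left out was the one already seen to be high in these genes, and the genes then passed the filter mainly through treated libraries, so this count shows what rests on S1 and is no evidence of a change. The interaction of this change with genotype had no call among 16 genes (0% of all), none with an unadjusted p under 0.05, and DESeq2 gave the same counts. That of tumor against mock had no call among 14 genes (0% of all), again with no unadjusted p under 0.05 by edgeR or DESeq2, which gave no adjusted p for 10 of them.

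Genotypes were compared at each stage, the question of whether loss of Zfp36 alters the shaft genes. In treated skin 14 genes were tested and none was called, beside 0.00616% of all genes. Krt84 and Krtap7-1 had an unadjusted p under 0.05, and DESeq2 called none, with 2 under 0.05. Krtap7-1 had 4.01, 3.94 and 10.3 CPM in fl/fl and 2.51, 1.82 and 0.675 in ΔK14, so that the groups did not overlap, with a log2 fold change of -1.89 (SE 0.56, adjusted p = 0.877, edgeR quasi-likelihood test). Krt84 differed by -1.42 (SE 0.55, adjusted p = 0.897, edgeR), Krt35 by -0.54 (SE 0.49) and Krt87 by -0.07 (SE 0.46). Of the 14 fold changes 13 were negative, but the genes share libraries and, in part, reads. With no low-count filter Krtap7-1 was called (adjusted p = 0.00459, edgeR), beside 0.646% of all genes. Krt33b did not pass the filter and did not overlap either, with 13, 7 and 20 counts in fl/fl and 3, 3 and 1 in ΔK14, a pooled level 5.11-fold higher in fl/fl with a 95% counting interval of 2.27 to 13.5. Krtap7-1, Krt33b and Krt32 were the 3 of 24 genes without overlap. The share of all genes without overlap was not computed here, so no genotype effect is read from this separation.

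Krtap7-1 and Krtap8-1 were also low relative to Krt35 in treated ΔK14 skin, a ratio chosen after its values were seen and given without a test. Per 100 counts of Krt35, Krtap7-1 had 7.71, 7.73 and 8.69 counts in treated fl/fl and 2.76, 5.22 and 2.30 in treated ΔK14. For Krtap8-1 the ratios were 15.4, 14.6 and 11.2 in fl/fl and 9.65, 10.8 and 6.32 in ΔK14. The genotypes did not overlap in either ratio. They did overlap in the ratios of Krt31 and Krt87, which were also computed. Krt31 had 6.16 to 11.6 counts in treated fl/fl and 3.45 to 9.70 in treated ΔK14. For Krt87 the ratios were 17.8 to 27.7 in fl/fl and 22.4 to 37.7 in ΔK14. The 95% intervals of single libraries were wide, with 5.36 to 10.8 for Krtap7-1 in treated fl/fl S1 and 2.82 to 8.92 in treated ΔK14 S2. In mock S1 the Krtap7-1 ratio was 5.93 in fl/fl and 4.57 in ΔK14, with overlapping intervals. The Krtap8-1 ratio there was 10.62 in fl/fl and 10.96 in ΔK14.

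In mock skin 13 genes were tested and none was called, with none under an unadjusted p of 0.05 by edgeR or DESeq2, and no gene of the table was called (0% of all). With 1 high library in each genotype the standard errors were 0.83 to 2.61 on the log2 scale. In tumors no member passed the filter, while 0.0284% of all genes were called. Krt35 had 1, 232 and 2 counts in fl/fl and 1, 3 and 0 in ΔK14 tumors, and Krt36 had 5, 22 and 1 against 0, 1 and 3. The groups thus overlapped and most fl/fl counts lay in S2. Scaled to library size, Krt36 was nearly as high in fl/fl S1 (2.49 CPM) as in S2 (3.35 CPM). With no low-count filter Krt35, Krt36, Krt83 and Krt87 were called lower and Krtap4-16 higher in ΔK14 tumors, beside 4.27% of all genes in either direction. Krtap4-16 had more counts in each ΔK14 tumor than in any other library, with 6, 5 and 13 counts against 0 in each fl/fl tumor, at least 1.60-fold higher at a floor of 3 counts. It had at most 3 counts in every other library. Krtap4-8 had 1, 1 and 2 counts in ΔK14 tumors and 0 in fl/fl tumors, and no fold is given because both groups were at the floor.

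Krt32 differed from its neighbor Krt35, although only 3966 bases separate them. It had 1.99, 2.55 and 6.28 CPM in mock fl/fl and 1.89 and 8.25 in mock ΔK14, so that its highest mock levels fell in the libraries with almost no Krt35. In treated skin it ranged from 1.83 to 2.19 CPM in fl/fl and from 1.18 to 1.43 in ΔK14, without overlap between genotypes (log2 fold change -0.64, SE 0.36, adjusted p = 0.906, edgeR). Tumors held 0.997, 0.608 and 0 CPM in fl/fl and 1.34, 0.361 and 0 in ΔK14. A noncoding gene, Gm11571, overlaps Krt32 on the opposite strand and shares windows with it, and without knowledge of the strand used in counting its reads cannot be told apart from those of Krt32. Krtap10-10 and Krtap17-1 also had counts in mock fl/fl S2 and S3, 3 and 6 for the former and 2 and 4 for the latter, and Krtap10-10 overlaps Tspear and Gm2696 on the same strand.

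**Figure D5:**
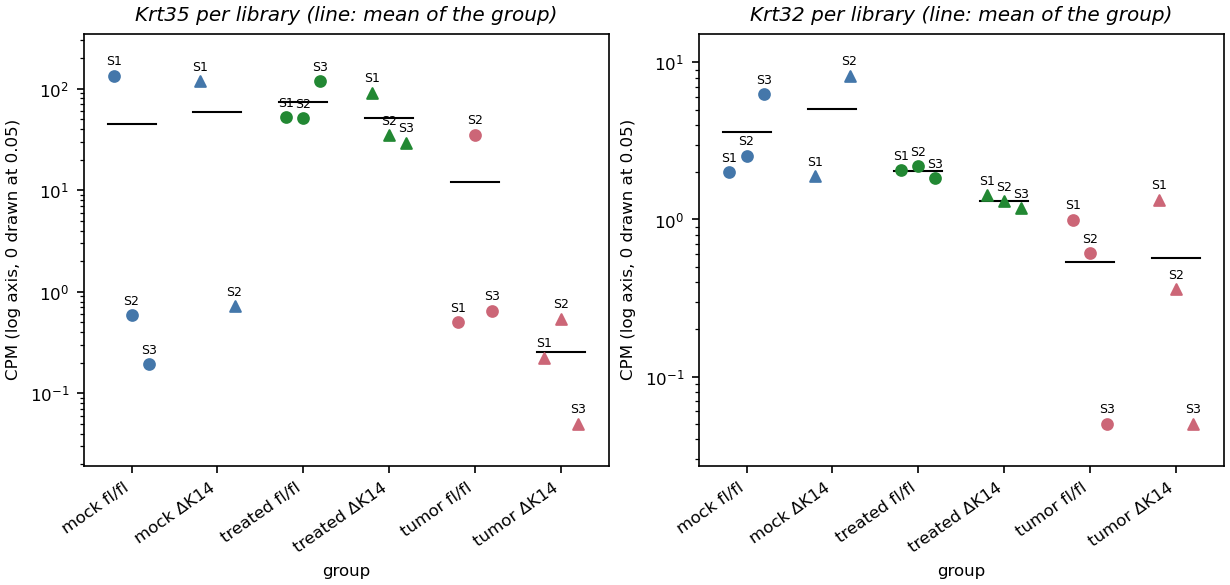
CPM of Krt35 (left) and of its chromosomal neighbor Krt32 (right) in each library by group (log y axes, 0 drawn at 0.05); circles are fl/fl, triangles ΔK14, and lines the mean of a group. In mock skin Krt35 is high in S1 (135 and 118 CPM) where Krt32 is lowest (1.99 and 1.89 CPM).

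The inner root sheath genes were high in the same mock and treated libraries as the shaft genes. The 10 genes of the inner root sheath and companion layer summed to 2342 CPM in mock fl/fl S1 and 2246 in mock ΔK14 S1, and to 20.1 to 26.9 in the other mock libraries. They summed to 492 to 1887 CPM in treated skin, 23.8 to 85.3 in fl/fl tumors and 30.02 to 53.5 in ΔK14 tumors. Of 8 tested between tumor and treated skin, 8 were called lower in fl/fl and 8 in ΔK14 mice, and their medians were -4.81 and -6.83. Over all genes tested, 10.5% and 15.5% were called lower. Between tumors of the 2 genotypes only 2 sheath genes, Krt75 and Tchh, passed the filter. The other sheath genes thus passed mainly through treated libraries, so their count of calls describes the list and does not stand as support. Hoxc13 showed the same order, with 66.9, 4.51 and 3.38 CPM in mock fl/fl, 27.2 to 65.0 in treated skin and at most 3.65 in tumors. Of 14 regulators and other shaft proteins 9 were called lower in tumors of each genotype, beside the same 10.5% and 15.5% of all genes. In both genotypes 1 of them, Prdm1, was called higher. As a sum, the regulators and other shaft proteins held 271 to 329 CPM in fl/fl tumors, with S2 not the highest, and 289 to 449 in ΔK14 tumors. Gata3 ran the other way in mock skin, with 168 and 201 CPM in S1 and 619 to 699 in the others. Foxn1, a regulator of hair keratin genes, did not split the mock libraries, with 14.1 to 19.7 CPM in all 5 of them. Padi3, an enzyme that citrullinates shaft and sheath proteins, had 16.5, 48.8 and 40.1 CPM in ΔK14 tumors, where Krt35 was nearly absent.

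Some markers of other cells also moved with the shaft genes, and their part in the results was not tested. The 6 melanocyte genes summed to 328 and 285 CPM in mock S1 of fl/fl and ΔK14, to 51.3 to 121 in the other mock libraries, 61.2 to 374 in treated skin and 12.1 to 39.9 in tumors, and none was at 0 in a whole group, although Dct, Tyr, Tyrp1 and Mlana were at 0 in tumor fl/fl S1 and S3. Within the melanocyte list Mitf ran against the sum in mock skin, with 9.30 and 7.56 CPM in S1 and 10.4 to 28.2 in the others. The 6 fibroblast genes summed to 506 to 1675 CPM in mock skin, 376 to 954 in treated skin and 30.2 to 385 in tumors. Among them Dcn followed the shaft genes, with 843 and 973 CPM in mock S1. It had 164 to 841 CPM in treated skin and at most 10 in tumors. The rest of the fibroblast list did not split the mock libraries this way. Col1a1 had 257 and 28.6 CPM in mock S1 and 227 to 725 in the others. Pdgfra had 3.65 and 1.89 CPM in mock S1 and 6.10 to 24.7 in the others. The leukocyte list summed to 8.52 to 175 CPM in all libraries, mostly Cd74, with Ptprc at or under 1.49 and Cd3e at or under 0.65 CPM. The endothelial list summed to 8.60 to 39.4 CPM, with Emcn at or under 0.434. In mock skin the sum of 8 epidermal genes ran the other way to the shaft genes. It was 3381 and 3278 CPM in S1 and 17420 to 20590 in the other libraries. Krt5, Krt14, Krt1 and Krt10 carried it, whereas Epcam, Ivl and Lor overlapped between S1 and the others. Epcam had 90.7 and 101 CPM in S1 and 95.1 to 116 in the others. Hair follicle stem cell genes, led by Krt15, summed to 448 and 508 CPM in mock S1 and 1935 to 2827 in the other mock libraries. Lgr5 ran against that sum, with 38.9 and 44.8 CPM in S1 and 18.7 to 19.6 in the others. The 6 proliferation genes summed to 1664 and 1693 CPM in mock S1 and 408 to 829 in the others.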

How the data were processed

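RNA was sequenced from sorted epidermal cells in 18 samples with the Ovation SoLo kit on an Illumina HiSeq. The deposited values are raw counts per gene made by the authors. The submitters' processing notes list Trimmomatic 0.36, STAR 2.5.3, HTSeq 0.9.1, DESeq2 and mm10. The annotation release, the use of strand and the treatment of duplicates are not given in the sources used here. Per-gene tests were run on the whole table with edgeR 4.0.16 in R 4.3.3 (filterByExpr, TMM scaling, quasi-likelihood F test, Benjamini-Hochberg adjustment over all genes tested), each on the 2 or 4 groups compared, and were tested on simulated data. DESeq2 1.42.0 was an alternative. CPM used TMM-scaled totals. Genes were called when they changed more than 2-fold at an adjusted p below 0.05. Intervals and floors (3 counts a library) cover counting error only. The labels do not say that samples came from separate animals, so p-values measure the spread between these samples. Totals of 2808550 to 9617985 counts limit genes with few counts. All 24 genes were named by rule. The genes and lists were chosen with earlier results of these data known. Same-numbered samples did not deviate together in every pair, so numbers were not taken as pairs. Between genotypes, correlations of their deviations were 0.78 and 0.57 for mock S1 and S2 but -0.55 for treated S3.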

Additional observations from a re-analysis of the deposited data

How the results depend on the processing

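Counts of genes called depended most on the low-count filter and on single libraries. With no filter the counts were 5 for genotype in tumors, 1 for genotype in treated skin, 2 for fl/fl tumor against mock, 12 for fl/fl tumor against treated, 12 for ΔK14 tumor against mock, 14 for ΔK14 tumor against treated, and 2 and 3 for the interactions of tumor against mock and against treated. In the same order, 4.27%, 0.646%, 7.64%, 12.9%, 13.1%, 16.3%, 0.522% and 2.76% of all genes were then called in either direction. DESeq2 called 1 gene in fl/fl tumor against mock, beside 14.3% of all genes in either direction. One fit of all libraries called 1, 1 and 3 genes in fl/fl tumor against mock, fl/fl tumor against treated and ΔK14 tumor against mock. Beside these, 17.6%, 15.2% and 16.8% of all genes were called in either direction. With the replicate block, 4 genes were called in fl/fl tumor against treated, beside 11.9% of all genes, and no other count moved past 1.5 times. Correlations of same-numbered samples in fl/fl tumor against treated were -0.01, -0.29 and 0.07. Leaving out 1 library gave 0 to 14 calls in fl/fl treated against mock, 0 to 1 in fl/fl tumor against mock, 3 to 11 in fl/fl tumor against treated, 0 to 11 in ΔK14 tumor against mock, 6 to 13 in ΔK14 tumor against treated and 0 to 2 in the interaction of tumor against treated. The share of all genes called moved too, in the same order over 0% to 15.1%, 0.181% to 21.0%, 7.21% to 24.3%, 0.709% to 28.1%, 17.5% to 29.2% and 0% to 7.53%. The mean summed level in ΔK14 tumors was 5.67 CPM on plain totals and 5.67 on totals without these genes. Without tumor fl/fl replicate 2, 6 of 15 interactions of tumor against treated were negative, in place of 12 of 14, and without treated ΔK14 replicate 3, 10 of 16 treated genotype fold changes were, in place of 13 of 14. Between mock genotypes the median log2 fold change of 13 genes turned from 0.32 to -0.23 with the replicate block. A model term for mock S1 gave -0.22. Of the 13 fold changes, 11 and 10 were then negative, in place of 4. Among the genes followed one by one, several turned sign. Over the fits that left out 1 library, Krt32 between mock genotypes ran from -0.96 (without mock ΔK14 replicate 2) to 1.20, and Krt81 from -3.10 (without mock ΔK14 replicate 1) to 1.57. For ΔK14 treated against mock, the replicate block gave 0.093 for Krtap7-1 and 0.59 for Krtap8-1, the identical columns as 2 libraries gave 0.064 for Krtap8-1, and leaving out 1 library gave -1.64 to 6.22 for Krtap7-1 and -1.40 to 7.72 for Krtap8-1, both highest without mock ΔK14 replicate 1. In the interaction of treated against mock, leaving out 1 library gave -1.81 to 0.30 for Krt32 (positive without mock ΔK14 replicate 2), and -9.05 to 5.34 for Krtap7-1 and -2.34 to 0.21 for Krtap3-3 (both positive without mock ΔK14 replicate 1). The same library turned Krt35 in the interaction of tumor against mock, which ran from -12.98 to 0.41. The cause was not tested.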
